A study of Mus musculus with 8 samples.

Results

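The keratin genes are the protein-coding genes whose symbol is Krt followed by a number, with or without a final letter; the keratin-associated Krtap genes were left out. GENCODE M21 lists 53 of them and all 53 were among the 55401 genes of the count table, 28 of type I and 25 of type II. RNA was sequenced from prospermatogonia, the germ cells of the testis before birth, taken from mouse fetuses at E17.5 (days of embryonic age). The genotype was Tet1-/- in 4 libraries, KO 1 to 4, and Tet1+/+ in the other 4, WT 1 to 4. The labels name no treatment and put all 8 in the same batch. The sources used here do not give the kind of Tet1 allele, how the cells were isolated or whether animals were pooled, so p-values measure the spread between these libraries, which may be technical.

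Keratins are the intermediate filament proteins of epithelia. A type I (acidic) keratin pairs with a type II (basic) keratin, and the filament forms only from such pairs. Simple epithelia use KRT8 with KRT18 or KRT19, the basal layer of skin uses KRT5 with KRT14, the layers above it use KRT1 with KRT10, and hair follicles have sets of their own. Type I genes lie in a cluster on mouse chromosome 11 and type II genes in a cluster on chromosome 15, except that Krt18 lies beside Krt8 at the end of the type II cluster. Germ cells are not epithelial, and most of these genes are known for roles in skin, hair and mucosa.

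The libraries held from 13820764 to 20115250 counts. Tet1 went against its label. It ran from 30.2 to 34.2 CPM (counts relative to library size, the usual CPM, with TMM scaling) in the libraries labelled WT and from 75.8 to 147 CPM in those labelled KO, and a count per gene cannot show whether an exon is missing. All directions below therefore follow the labels as deposited. The prospermatogonial markers summed to between 3246 and 3833 CPM in WT and between 2535 and 3105 CPM in KO. Of these 10 markers 4 fell, Mael among them, 3 rose, Dazl among them, and 3 did not pass. KO 4 stood apart by its fetal Leydig cell markers, whose sum was 1945 CPM there and between 49.3 and 70.8 CPM in the other 7 libraries.

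Keratin transcripts were scarce and mostly lower in the libraries labelled KO. Of the 53 genes, 36 had enough counts to test. Of these, 29 fell, 0 rose and 7 did not pass (edgeR quasi-likelihood test, Benjamini-Hochberg adjusted p under 0.05 over all 24005 genes tested). Over all genes tested, 28.2% were called lower and 25.3% higher. The median log2 difference (KO minus WT) of the tested keratins was -1.65, beside -0.05 for all genes. All 4 KO libraries lay below all 4 WT libraries for 28 of the 36 keratins, beside 25.1% of all genes. At an unadjusted p under 0.05, 30 were lower and 1 higher, and DESeq2 called 29 lower and 1 higher (27.4% of all genes lower). Without KO 4 the edgeR test called 32 of 42 tested keratins lower and 0 higher, beside 24.7% of all genes lower. More keratins were tested in that run because a gene then had to reach the low-count limit in fewer libraries. Keratins that reach it only in WT can enter in this way, so the 32 cannot be set against the 29.

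The low-count limit bears on how these numbers can be read. A gene was tested when about 0.616 CPM or more was reached in 4 libraries, so a gene seen mostly in WT could enter through WT alone. Of the 36 tested keratins, 3 (Krt6a, Krt15 and Krt82) had no KO library at that limit and 20 had 1 to 3. The other 13 reached it in all 4 KO libraries, and 10 of them fell. The share of all genes under that same condition was not computed. The 28.2% given above can include genes that entered through KO or WT alone, so it is not the matching share. With no low-count limit all 53 keratins entered the test, and 38 were lower and 0 higher, beside 15.3% of 49140 genes lower.

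**Figure D1:**
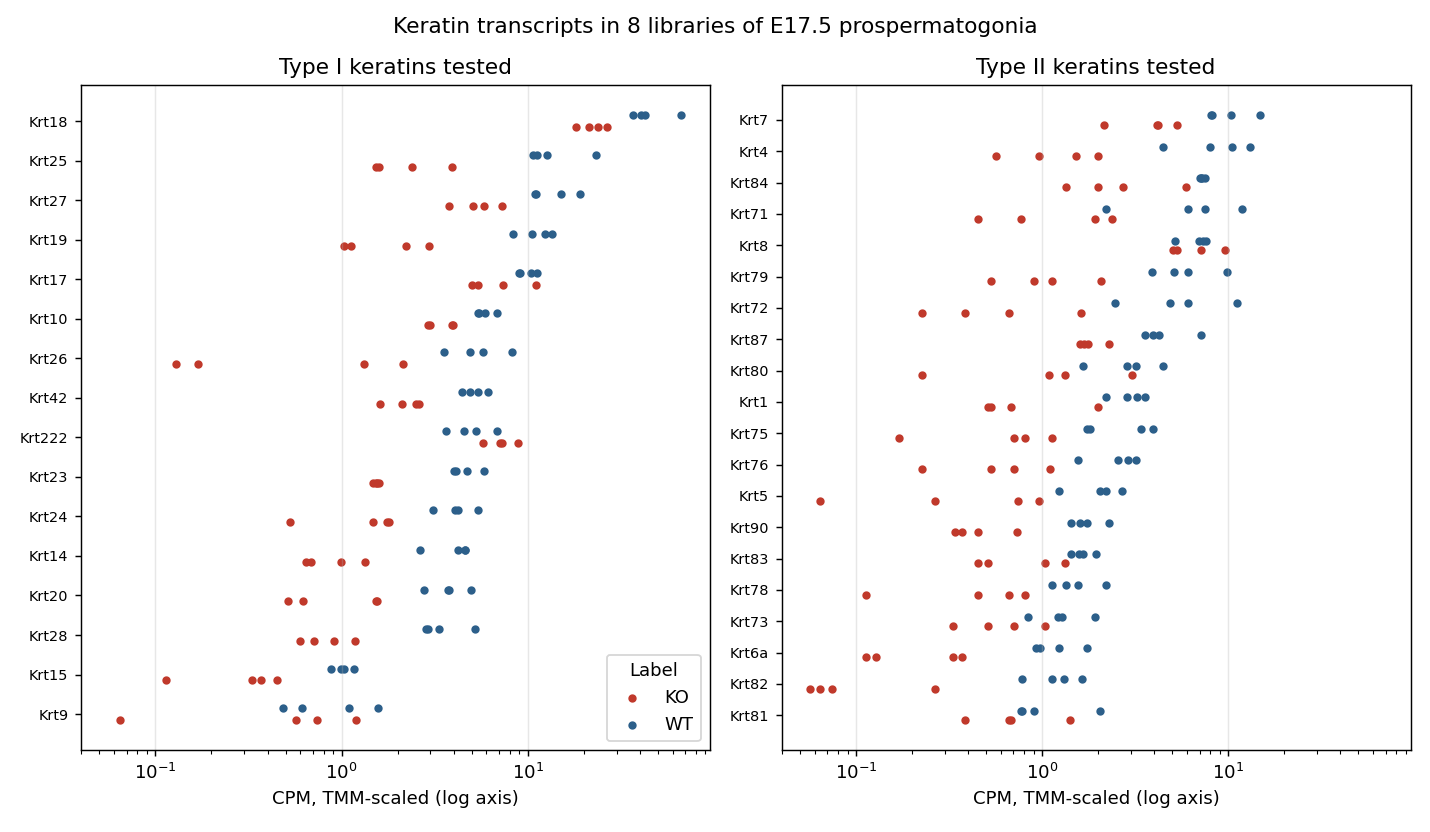
TMM-scaled CPM of the 36 tested keratins in each library, on a log axis, with type I on the left and type II on the right, ordered by the WT mean; each point is 1 library. For 28 of the 36 genes every KO point lies to the left of every WT point, and Krt18 is the most abundant.

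The keratin difference also has to be read beside abundance, because scarce genes in general were lower in KO. Among protein-coding genes with a mean under 4 CPM, 46.2% were called lower and 6.32% higher, with a median log2 difference of -0.89. All 4 KO libraries lay below all 4 WT libraries for 38.9% of them. Of the 24 tested keratins in that range 20 fell, and their median was -1.78. Among protein-coding genes with a mean of 4 CPM or more, 24.3% were lower and 39.3% higher, with a median of 0.17. Of the 12 tested keratins in that range 9 fell, with a median of -1.32. Set in finer ranges of abundance, 31 of the 36 keratins lay below the median difference of the protein-coding genes in their range, and 25 lay below the lower quartile. These are descriptions, since the keratins were chosen with results of these data known.

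**Figure D2:**
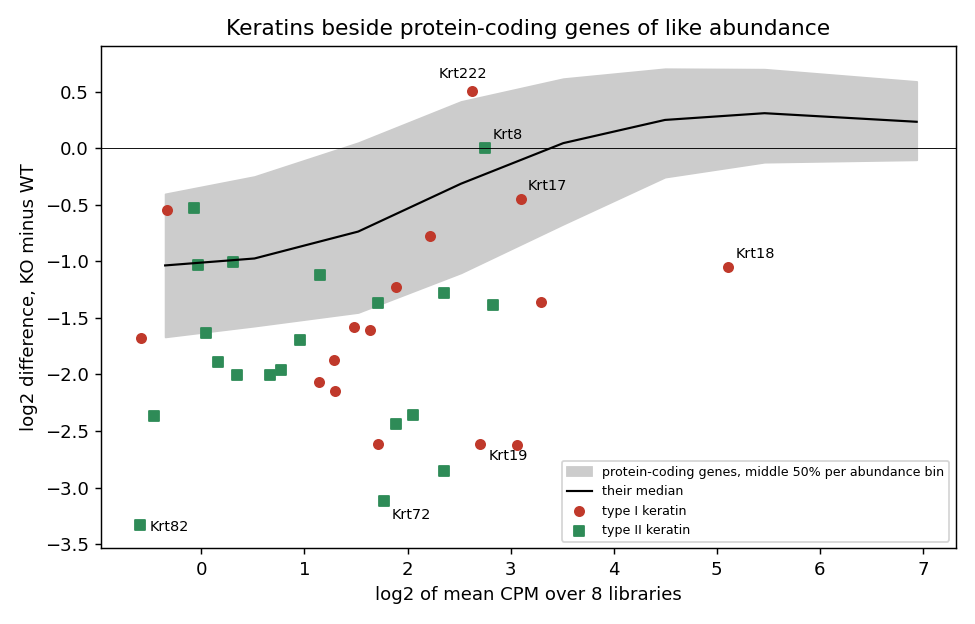
Log2 difference (KO minus WT) of each tested keratin against the log2 of its mean CPM; the line is the median and the grey band the middle 50% of protein-coding genes in 8 ranges of abundance. The median line falls toward scarce genes, and 25 of the 36 keratins lie under the band.

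Genes of both types fell. Of 16 tested type I genes 13 fell and 3 did not pass, with a median difference of -1.59. Of 20 tested type II genes 16 fell and 4 did not pass, with a median of -1.79. The summed level of all 28 type I genes was 138, 191, 141 and 119.9 CPM in WT 1 to 4 and 57.6, 66.7, 71.6 and 52.8 CPM in KO 1 to 4. The summed level of all 25 type II genes was 81.7, 117, 77.9 and 57.3 CPM in WT 1 to 4 and 30.1, 23.5, 39.6 and 22.0 CPM in KO 1 to 4. Neither sum overlapped between the groups. WT 2 was the highest WT library for 24 of the 36 tested keratins, and KO 3 the highest KO library for 22. The means were 2.37 times as high in WT as in KO for type I and 2.90 times for type II.

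**Figure D3:**
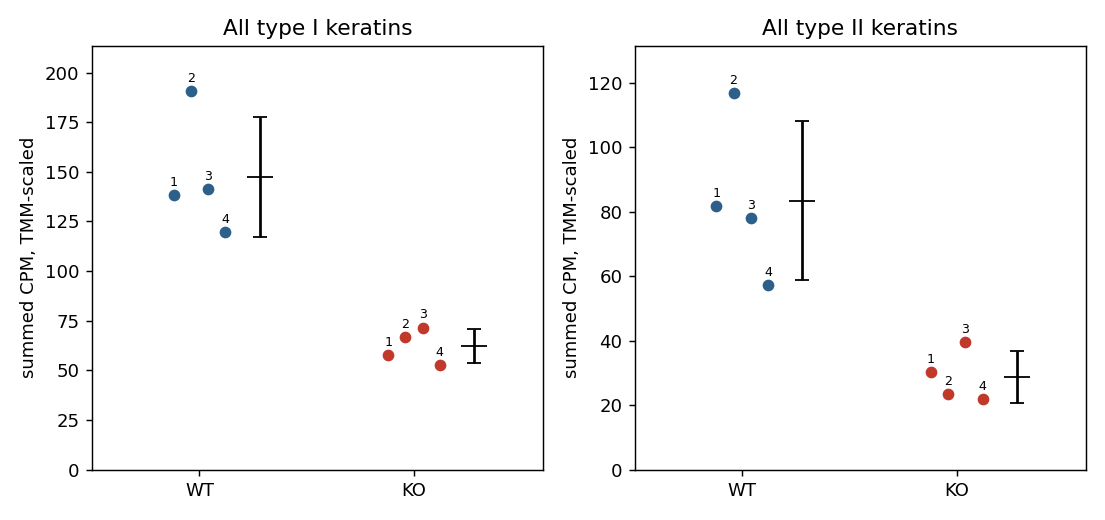
Summed TMM-scaled CPM of all type I and all type II keratins in each library, numbered by replicate; bars show the mean and SD (n = 4). The WT libraries run from 119.9 to 191 CPM for type I and from 57.3 to 117 CPM for type II, above every KO library.

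The promoters are shown for keratins that share a feature of their start sites. RefSeq promoter windows (GRCm38.p6) matched 36 of the 53 genes, in 37 windows. In the 250 bases before the start site, the motif TATAAA (either strand) occurred in 45.9% of the keratin windows and in 12.4% of all 32851 promoter windows. On the gene's own strand, and wholly between 40 and 16 bases before the start, it occurred in 13 of the 37 keratin windows (35.1%) and in 1.99% of all windows. That placement is the usual one of a TATA box, which binds the TATA-binding protein. It was found in 10 of 22 type I and 3 of 15 type II windows. The motif was present in 7 of the 22 windows of genes that fell and in 1 of the 3 windows of tested genes that did not pass. The windows printed here hold the 150 bases before the start site of 4 type I genes and 2 type II genes with the motif in that place. They are Krt10 (chr11:99389365-99389514), Krt25 (chr11:99322952-99323101), Krt26 (chr11:99337966-99338115), Krt28 (chr11:99374904-99375053), Krt73 (chr15:101802361-101802510) and Krt76 (chr15:101892921-101893070), all on the minus strand. Capitals mark TATAAA and each CpG, the dinucleotide in which most DNA methylation is found and whose methyl group TET enzymes oxidise. Of the 6 genes, Krt73 was the 1 that did not pass.
Krt10: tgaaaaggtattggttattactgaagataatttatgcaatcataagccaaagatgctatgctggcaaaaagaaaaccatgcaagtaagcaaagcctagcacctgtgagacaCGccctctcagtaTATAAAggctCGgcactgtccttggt
Krt25: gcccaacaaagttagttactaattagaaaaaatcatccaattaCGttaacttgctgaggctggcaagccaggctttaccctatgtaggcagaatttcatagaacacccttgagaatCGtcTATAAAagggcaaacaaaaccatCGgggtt
Krt26: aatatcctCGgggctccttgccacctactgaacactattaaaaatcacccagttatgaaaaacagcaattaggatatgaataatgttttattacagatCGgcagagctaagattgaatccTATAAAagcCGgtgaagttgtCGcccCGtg
Krt28: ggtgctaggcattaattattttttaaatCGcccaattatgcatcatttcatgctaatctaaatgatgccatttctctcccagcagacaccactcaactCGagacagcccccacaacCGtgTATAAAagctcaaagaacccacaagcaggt
Krt73: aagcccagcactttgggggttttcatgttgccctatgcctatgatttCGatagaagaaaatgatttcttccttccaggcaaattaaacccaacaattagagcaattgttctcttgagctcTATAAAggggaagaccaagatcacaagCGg
Krt76: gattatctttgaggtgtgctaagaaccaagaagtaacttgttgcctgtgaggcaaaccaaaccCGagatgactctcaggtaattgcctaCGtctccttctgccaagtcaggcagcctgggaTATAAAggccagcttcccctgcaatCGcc

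These windows hold few CpGs. The median over the 37 keratin windows was 4 CpGs in 250 bases and the range 1 to 16, beside a median of 6 over all promoter windows. Fewer than 5 CpGs were found in 24 of the 37 keratin windows (64.9%) and in 44.4% of all windows. For genes that fell the count was 11 of 22 windows (50%), with a median of 4.5 CpGs, near the share of all windows. For tested genes that did not pass it was 3 of 3. The highest counts were those of the simple epithelial genes Krt7 (16) and Krt18 (12), and Krt8 had 3. For Krt18, Krt8, Krt7 and Krt14 the RefSeq start site lies 36, 140, 1360 and 1518 bases inside the GENCODE gene, so those windows hold transcribed sequence by that annotation and are not shown. The same holds for 1 window of Krt13, at 989 bases. For Krt26, Krt82, Krt71 and Krt23 the start site lies 1, 8, 12 and 17 bases inside, and Krt26 is shown. All these windows count in the shares given for the 37. DNA methylation at these windows was not analysed here.

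Of the 5 keratins of simple epithelia 4 fell and 1, Krt8, did not pass, with a median difference of -1.39. Krt18 (ENSMUSG00000023043.7, chromosome 15, 102028180 to 102032027, plus strand, GRCm38) had 42.4, 66.8, 40.7 and 36.8 CPM in WT 1 to 4 and 21.4, 23.8, 26.6 and 18.2 CPM in KO 1 to 4. The groups did not overlap, and it fell by 1.05 on the log2 scale (SE 0.185, edgeR adjusted p = 0.000406). Its neighbour Krt8 (ENSMUSG00000049382.10, chromosome 15, 101996698 to 102004482, minus strand), the usual type II partner of KRT18, had 6.91, 7.55, 7.35 and 5.18 CPM in WT 1 to 4. It had 7.16, 9.59, 5.02 and 5.27 CPM in KO 1 to 4, so the groups overlapped. Its log2 difference was 0.00 (SE 0.232, edgeR adjusted p = 0.989). Upper-quartile scaling gave -0.24 and scaling on ribosomal protein genes gave -0.22, neither past the threshold.

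The ratio of these partners is given as a description, since the pair was chosen after its values were seen. Per length (RPKM, CPM per kilobase of exon), Krt18 exceeded Krt8 by a factor of 8.36, 12.1, 7.54 and 9.69 in WT 1 to 4 and by 4.08, 3.39, 7.23 and 4.70 in KO 1 to 4. The log2 ratio was 3.21 ± 0.293 (SD, n = 4) in WT and 2.22 ± 0.466 (SD, n = 4) in KO. KO 3 came close to WT 3. Of the Krt8 transcript sequence, 26.9% of 50-base words also occur in the pseudogene Krt8-ps, and the sources used here do not say how reads with more than 1 match were counted.

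**Figure D4:**
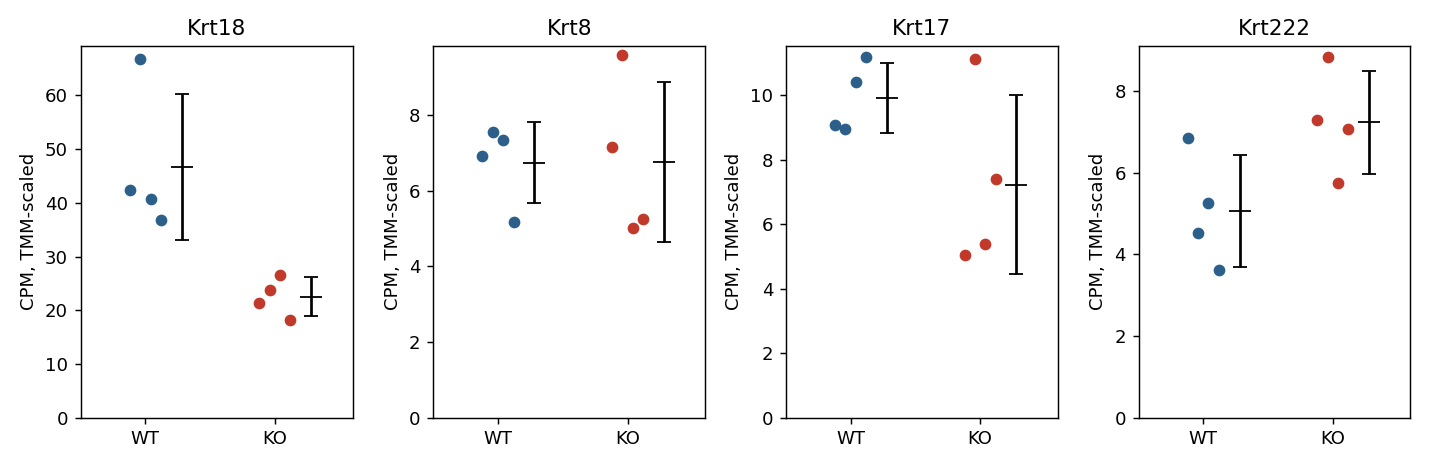
TMM-scaled CPM of Krt18, Krt8, Krt17 and Krt222 in each library, each point 1 library, with the mean and SD (n = 4) as bars. Krt18 separates the groups, with KO between 18.2 and 26.6 CPM and WT between 36.8 and 66.8 CPM, while the other 3 genes overlap between groups.

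The other simple keratins fell. Krt19, a type I keratin without the tail domain and the other partner of KRT8, had 10.5, 13.5, 12.4 and 8.35 CPM in WT 1 to 4 and 1.13, 2.21, 2.95 and 1.03 CPM in KO 1 to 4. Every KO library was far below every WT library. Krt19 fell by 2.61 on the log2 scale (SE 0.309, edgeR adjusted p = 2.17e-05), the lowest adjusted p among the keratins. Krt7, the type II keratin of ducts and glands, had 10.3, 14.7, 8.03 and 8.15 CPM in WT 1 to 4 and 5.30, 2.16, 4.21 and 4.11 CPM in KO 1 to 4, without overlap, and fell by 1.39. Krt20, known from intestine and urothelium, went from 3.81 ± 0.882 to 1.05 ± 0.561 CPM (SD, n = 4) and fell by 1.87.

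The inner root sheath is the layer that guides the growing hair. Of its 7 keratins, all tested, 6 fell and 1 did not pass, with a median difference of -2.36. Krt25 had 12.7, 23.1, 11.1 and 10.7 CPM in WT 1 to 4 and 1.52, 1.59, 3.91 and 2.38 CPM in KO 1 to 4, and fell by 2.63 (SE 0.332, edgeR adjusted p = 3.48e-05). WT 2 was the highest by a wide margin, and no KO library reached a WT value. Krt27 went from 14.1 ± 3.86 to 5.50 ± 1.46 CPM (SD, n = 4) without overlap and fell by 1.36. Krt26 and Krt28, their neighbours on chromosome 11, fell as well, with differences of -2.61 and -2.07. Krt26 was uneven within KO, with 20, 3, 29 and 2 counts in KO 1 to 4 against 112, 141, 101 and 55 in WT 1 to 4.

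Of the 3 type II genes of the same sheath, Krt71 and Krt72 fell and Krt73 did not pass. Krt72 had 6.04, 11.1, 4.87 and 2.46 CPM in WT 1 to 4 and 0.663, 0.227, 1.62 and 0.386 CPM in KO 1 to 4, and fell by 3.12 (SE 0.544, edgeR adjusted p = 0.00039). Krt71 had 7.53, 11.9, 6.08 and 2.20 CPM in WT 1 to 4 and 1.92, 0.454, 2.36 and 0.771 CPM in KO 1 to 4. WT 4 was below KO 3, and Krt71 fell by 2.36. Krt73 had 25, 33, 25 and 13 counts in WT 1 to 4 and 5, 9, 14 and 11 in KO 1 to 4, and its difference of -1.03 did not pass (edgeR adjusted p = 0.0528). It passed with limma library weights, upper-quartile and ribosomal protein scaling, the filter at 1 CPM, without KO 3 and without WT 4, at differences from -1.08 to -1.31, and was -0.34 with cyclic loess (limma adjusted p = 0.495).

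Both partners of the basal pair of stratified epithelium fell. Krt14 had 82, 79, 95 and 41 counts in WT 1 to 4 and 15, 12, 18 and 10 in KO 1 to 4, and fell by 2.15. Krt5 had 43, 46, 42 and 19 counts in WT 1 to 4 and 4, 13, 13 and 1 in KO 1 to 4, and its log2 difference was -2.01 (SE 0.528, edgeR adjusted p = 0.00621). Krt15, a type I keratin of basal cells and hair follicle stem cells, fell by 1.68 on 73 counts in WT and 19 in KO, and did not pass with cyclic loess scaling (-0.83, limma adjusted p = 0.130). For all 3 genes the groups did not overlap.

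In the epidermal pair Krt1 fell, with a difference of -1.69, and so did Krt10, with -0.78, the smallest among the tested keratins that passed. Krt10 had 5.48, 6.80, 5.40 and 5.89 CPM in WT 1 to 4 and 2.98, 2.89, 3.91 and 3.98 CPM in KO 1 to 4, with no overlap and little spread. Krt9, the keratin of palm and sole, had 66 counts in WT and 39 in KO and did not pass (-0.55, edgeR adjusted p = 0.459). The mucosal keratins Krt4, Krt76 and Krt78 fell, with differences of -2.85, -2.01 and -1.63. Krt4, of the oesophagus and tongue, had 7.94, 13.1, 10.5 and 4.47 CPM in WT 1 to 4 and 1.52, 0.567, 1.99 and 0.964 CPM in KO 1 to 4. Krt78 did not pass with cyclic loess (-1.09, limma adjusted p = 0.0734).

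Of 4 tested keratins induced by wounding or found in skin appendages 3 fell. These were Krt79, Krt6a and Krt75, with differences of -2.44, -2.37 and -1.96. Krt17, a stress-induced type I keratin, was among the most abundant keratins per length and did not pass, at -0.45 (SE 0.237, edgeR adjusted p = 0.128). It had 9.07, 8.95, 10.4 and 11.2 CPM in WT 1 to 4 and 5.04, 11.1, 5.39 and 7.39 CPM in KO 1 to 4. The overlap came from KO 2. Without KO 2 the difference was -0.70 and passed (edgeR adjusted p = 0.0146), and it passed with upper-quartile (-0.69) and ribosomal protein scaling (-0.66) and with limma library weights (-0.57).

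Most hair keratins were near the limit of detection. Of 15, only 5 were tested, and 4 of these fell, Krt82, Krt84, Krt87 and Krt83, the first 3 with differences of -3.34, -1.28 and -1.37. Krt82, the largest difference of any tested keratin, rested on 22, 28, 27 and 12 counts in WT 1 to 4 and 4, 1, 1 and 1 in KO 1 to 4. Summed over the libraries its depth-scaled ratio of WT to KO was 10.8 (95% counting interval 5.03 to 27.7). Krt84 was even in WT, at 7.12, 7.20, 7.06 and 7.51 CPM, and ran from 1.35 to 5.90 CPM in KO. Krt83 was near the threshold (edgeR adjusted p = 0.0421) and did not pass in 8 alternatives, among them without KO 2 (-0.78), without KO 4 (-0.77) and without each WT library in turn, and Krt81 did not pass (-0.52, edgeR adjusted p = 0.37). Krt81, Krt83 and Krt86 share sequence, with 37.7%, 22.1% and 43.3% of their 50-base words found in another gene. This limit also holds for other keratins, called and not called. The shares were 50.1% for Krt6b, 45.7% for Krt6a, 37.6% for Krt16 and 36.9% for Krt87. They were 33.1% for Krt34, 28.1% for Krt31 and 24.2% for Krt33b.

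Among the remaining tested genes Krt23, Krt24, Krt42 and Krt90 fell, the last 3 with differences of -1.58, -1.23 and -1.89. Krt23 (edgeR adjusted p = 0.000108) was even within each group, at 4.71, 4.01, 5.79 and 4.14 CPM in WT 1 to 4 and 1.52, 1.59, 1.48 and 1.54 CPM in KO 1 to 4. Krt80 had a difference of -1.12 that did not pass (edgeR adjusted p = 0.0869), with KO 3 at 3.03 CPM against 0.227 to 1.33 CPM in the other KO libraries, and without KO 3 it passed (-1.77, edgeR adjusted p = 0.0117), as it did with limma library weights (-1.23) and with no low-count limit (-1.07). Krt222, a keratin-like type I gene at the outer end of the cluster, was the tested keratin with the largest value in the other direction. It had 6.86, 4.53, 5.26 and 3.62 CPM in WT 1 to 4 and 7.29, 8.85, 5.76 and 7.07 CPM in KO 1 to 4. Its difference was 0.51 (edgeR adjusted p = 0.0719), and scaling by the upper quartile or on ribosomal protein genes gave 0.27 and 0.30 (edgeR adjusted p = 0.331 and 0.328). It passed with DESeq2 (0.54, adjusted p = 0.0489), with cyclic loess (0.65, limma adjusted p = 0.0278), without KO 3 (0.63, edgeR adjusted p = 0.0383) and without WT 1 (0.70, edgeR adjusted p = 0.0282).

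**Figure D5:**
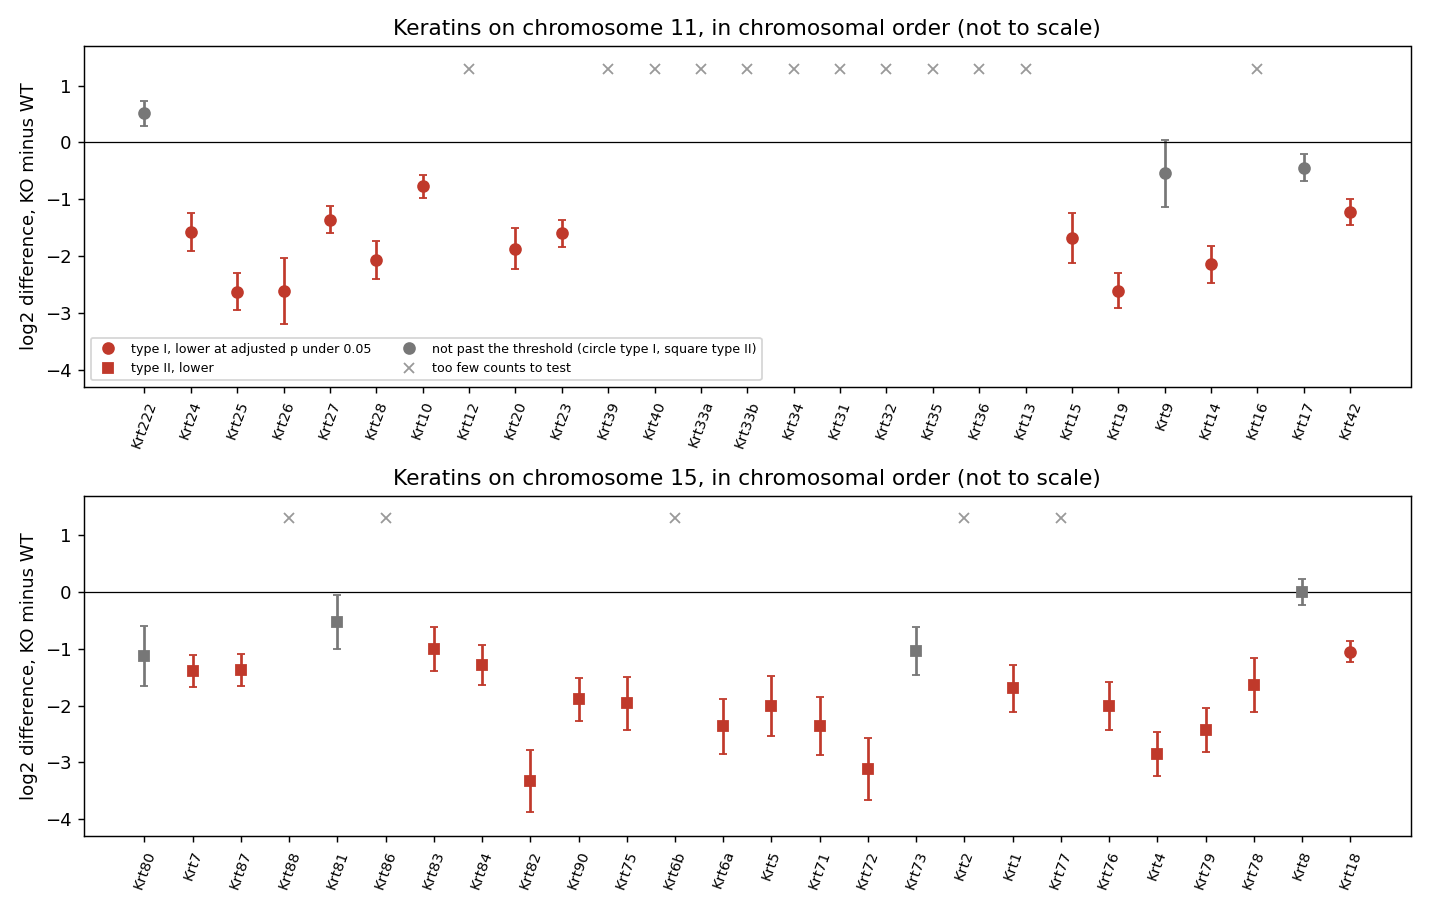
Log2 difference (KO minus WT) with its SE for each keratin in chromosomal order, circles for type I and squares for type II, red where the gene fell; crosses mark genes with too few counts. Falls run along both clusters, the middle of the chromosome 11 cluster holds genes that could not be tested, and Krt8 and Krt18 stand side by side at the end of the chromosome 15 cluster.

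The 17 keratins with too few counts had from 12 (Krt39) to 111 (Krt35) counts over all 8 libraries, and 12 of them are type I. The next highest totals were 96 (Krt16) and 81 (Krt12). Hair keratins make up 9 of the 12. Krt31 and Krt34 were chosen after their values were seen. Krt31 had 13, 14, 7 and 9 counts in WT 1 to 4 and 0, 0, 1 and 1 in KO 1 to 4, and Krt34 had 16, 16, 8 and 13 against 4, 0, 0 and 0. Their depth-scaled ratios of WT to KO were 18.3 (95% counting interval 4.76 to 156) for Krt31 and 11.3 (4.15 to 42.9) for Krt34. Each is the other's closest match, with 20.8% of the Krt31 and 20.4% of the Krt34 50-base words shared. These ratios may therefore not be independent. Krt35 had 96 counts in WT and 15 in KO. A count of 0 in a library allows up to 3 counts, or between 0.146 and 0.221 CPM. Without a low-count limit 9 of the 17 were lower and 0 higher (edgeR), and all 17 differences were below 0. Krt77 was closest to no difference, with 20 counts in WT and 16 in KO.

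Per length, 23 keratins reached an RPKM of 1 in the WT mean and 9 in the KO mean. In WT the order began with Krt18 at 32.5 ± 9.47 RPKM (SD, n = 4), followed by Krt27 at 9.09 ± 2.49, Krt25 at 7.24 ± 2.95, Krt17 at 6.39 ± 0.702 and Krt19 at 6.02 ± 1.21. The 4 genes after Krt18 overlapped in their spread. In KO the order began with Krt18 at 15.7 ± 2.50 RPKM (SD, n = 4), followed by Krt17 at 4.66 ± 1.80, Krt27 at 3.55 ± 0.944, Krt8 at 3.45 and Krt222 at 2.20 ± 0.385. Krt8 and Krt222 were thus among the 5 highest keratins in KO, and Krt25 and Krt19 were not.

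Protein-coding genes between the keratins were scarce as well. In the chromosome 11 cluster (99232761 to 100269871) the 23 Krtap genes held 190 counts in WT and 61 in KO in all, and 18 other protein-coding genes held 83 and 35. None of these genes could be tested. The 20 other genes there, none of them protein-coding, held 3591 counts in WT and 4021 in KO. Of these, 3 were tested, of which 1 fell and 2 did not pass, with a median difference of 0.51. A median of 3 genes cannot be set against that of the keratins. In the chromosome 15 cluster (101347444 to 102032027) 3 other protein-coding genes held 87 counts in WT and 46 in KO, and 21 other genes held 189 and 118, and none was tested. Exons of Krt12 overlap those of A830036E02Rik on the opposite strand by 1007 bases, and Krt6a, Krt7, Krt8, Krt10, Krt32 and Krt80 also overlap a long noncoding gene on the opposite strand, so their counts are uncertain where strand was not used.

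Desmosomes and hemidesmosomes anchor keratin filaments to the membrane. Of 24 desmosome and hemidesmosome genes 20 were tested, and 11 fell, 2 rose and 7 did not pass, with a median difference of -1.20. This and each list count that follows is to be read beside the 28.2% of all genes called lower and the 25.3% called higher. The shares depend on abundance, at 46.2% lower and 6.32% higher for protein-coding genes with a mean under 4 CPM. With a mean of 4 CPM or more they were 24.3% and 39.3%. Of the genes in this list that fell, Pkp1, Dsg3 and Dsc3 are in the scarcer range, and the others, Dsp among them, are not. Macf1 is not in it either. Dsp, the plakin that ties keratins to the desmosome, went from 105 ± 25.2 to 32.3 ± 4.47 CPM (SD, n = 4) and fell by 1.71. Pkp3, a desmosomal plaque protein, fell by 2.21. Macf1, a large linker of actin and microtubules, rose by 0.96, from 427 ± 34.5 to 830.3 ± 41.7 CPM (SD, n = 4).

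Regulators of epithelial genes changed in both directions. Of 20, 12 fell, 3 rose, and 5 did not pass, with a median of -0.81. Grhl2, which maintains epithelial identity, fell by 1.00, and Klf5 and Tfap2c, which are also active in pluripotent or early germ cells, rose by 1.29 and 2.03. Of 16 other intermediate filament genes 8 fell, 3 rose and 5 did not pass, with a median of -0.57. The lamin genes Lmnb1 and Lmnb2 rose, from 36.4 to 117 and from 10.8 to 35.0 CPM, and Nes rose by 0.90. The third lamin gene, Lmna, fell by 1.22, from 27.0 to 11.6 CPM. Of 20 cornified envelope genes only 10 were tested, with 2 higher, 2 lower and 6 not passing. Tchh, a protein of the inner root sheath that keratins embed in, rose by 1.10, from 15.8 ± 5.22 to 33.9 ± 11.6 CPM (SD, n = 4). Rptn rose by 1.77 and Casp14 fell by 1.56. Of 19 keratin-binding and regulating genes 18 were tested, and 6 rose, 2 fell and 10 did not pass, with a median of 0.15. Aurkb, a mitotic kinase, rose by 2.59, and Stub1 and Cast rose by 1.07 and 0.90. The edgeR adjusted p of the genes named in this and the preceding paragraph was 0.00608 or lower, except for Dsg3 (0.0270).

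The lists of markers of other cell types share some genes with each other and with the lists above. The 10 skin epithelium markers summed to 90.6, 105, 81.1 and 73.0 CPM in WT 1 to 4 and had a mean of 41.3 CPM in KO, with every KO library below every WT library, and of 8 tested 6 fell and 0 rose; Trp63, which specifies stratified epithelium, fell by 1.45, and Lor did not pass. The 10 mesothelial markers summed to 83.3 to 141 CPM in WT and 59.5 to 76.1 CPM in KO, with 3 lower and 2 higher of 8 tested. Much of that sum was Aldh1a2, with a mean of 77.3 CPM in WT and 35.2 CPM in KO, beside list means of 105 and 68.4 CPM. Lrrn4 rose, from 1.90 to 9.88 CPM, so the sum does not describe the list as a set. The 10 markers of rete testis and mesonephric ducts summed to 82.5 to 102 CPM in WT and 103 to 183 CPM in KO. Within that list 4 fell, among them Pax2 by 1.87, and 3 rose, among them the adhesion gene Cdh1 by 1.99. The 10 endothelial markers summed to 132 to 165 CPM in WT and 96.7 to 115 CPM in KO, with 7 lower and 1 higher of 9 tested. The 10 macrophage and blood markers summed to 23.6 to 30.2 CPM in WT and 13.6 to 21.5 CPM in KO. Of 6 tested, 4 were lower and 1, Hba-a1, was higher. Much of that sum was Alas2, with a mean of 18.5 CPM in WT and 9.25 CPM in KO. Falls were not particular to the skin list, since 7 of 9 tested endothelial markers were lower as well. The 10 Sertoli markers summed to 19.9 to 34.3 CPM in WT and 29.3 to 104 CPM in KO, with the highest value in KO 4. Of 9 tested Sertoli markers 5 were higher and 1 lower. The interstitial markers summed to 114 to 165 CPM in WT and 126 to 165 CPM in KO, with 3 higher and 1 lower of 10 tested. No marker of these lists was at 0 in all libraries. The part of such cells in the keratin differences was not tested, and in bulk samples fewer cells of a type and less RNA per cell cannot be told apart.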

How the data were processed

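The authors deposited 1 table of unnormalized whole-number counts for each gene in each of the 8 libraries. Per the submitters' processing notes, featureCounts 1.5.0, STAR, Trim Galore, DESeq2 and edgeR were used, with no role or order stated, and the build was mm10. Per the labels' protocols, ribosomal RNA-depleted total RNA (5 ng) went into libraries of a low-input SMART-seq kit with molecular identifiers (UMIs). The sources used here do not give UMI collapsing, the strand setting or the annotation release, so reads of overlapping or near-identical genes may be shared or lost. Counting intervals and floors cover counting error alone.

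Identifiers were matched without version to GENCODE M21 (GRCm38, the assembly of mm10), and 55141 of 55401 matched. The test was edgeR's quasi-likelihood test (version 4.0.16, R 4.3.3) on genes kept by filterByExpr (10 counts at the median library size in 4 libraries), with TMM scaling and genotype as the only term. CPM uses TMM-scaled library sizes, and RPKM divides it by the union of exons. Genes passed at an adjusted p under 0.05. The symbol rule was read as allowing a final letter. All tested keratins, up to 3 members of each pathway list by lowest p and up to 2 of a marker list are named; the Krt18 to Krt8 ratio and other members singled out were picked with their values in view. The keratins and lists were chosen with earlier results of these data known. Alternatives were DESeq2 1.42.0, limma 3.58.1 with library weights or cyclic loess, robust dispersion, other scalings and filters, the replicate number as a block, a looser threshold and each library left out. No 2 libraries of a group matched within counting noise (chi-square over its degrees of freedom, 7.34 to 26.5).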

Additional observations from a re-analysis of the deposited data

Results flagged for a closer look

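Each of 76 groups of 4 libraries (the 36 tested keratins and both summed levels, in KO and in WT) was searched for a library set apart from the other 3 by a gap over 0.829 of the group's range. Chance gives about 5% of groups, and 4 were found. Krt25 had 23.1 CPM in WT 2, and the next highest WT library had 12.7 CPM. Krt81 had 2.03 CPM in WT 2, and the next highest had 0.906 CPM. Krt82 had 0.265 CPM in KO 1, on 4 counts, and 1 count in each of the other KO libraries. Krt1 had 1.99 CPM in KO 3, and the next highest KO library had 0.681 CPM.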

How the results depend on the processing

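The count of keratins that passed stayed within 1.5 times the 29 reported in every alternative run, from 27 with cyclic loess or a CPM of 1 or more in 4 libraries to 38 with no low-count limit. Leaving out 1 library gave 29 to 37, of 36 to 42 tested, with 13 reported and 14 to 18 found for type I and 16 reported and 15 to 19 found for type II. These runs required the low-count limit in fewer libraries, so keratins that reach it only in WT could enter. Their counts are therefore not of the same genes and do not measure how stable the 29 are. Without symbols that end in a letter 28 passed, and with Krt18 counted by position 12 passed on chromosome 11 and 17 on chromosome 15. Of the 29, 26 passed in all alternatives in which they were tested; the exceptions were Krt15, Krt78 and Krt83. The median over all genes shifted by -0.24 under upper-quartile scaling, -0.18 under ribosomal protein scaling and 0.10 under cyclic loess. The first 2 gave 31 keratins lower, and the third 26 lower and 1 higher. For all genes, upper-quartile scaling gave 4033 higher and 8882 lower, ribosomal protein scaling 4011 and 7629, and cyclic loess 6126 and 5933, against 6083 and 6770. The sign of Krt8 changed with limma library weights (-0.0868), upper-quartile (-0.24) and ribosomal protein scaling (-0.22), the stricter filter (-0.0372), the replicate block (-0.0268), without KO 2 (-0.18) and without WT 4 (-0.0849). Over the 8 libraries left out in turn Krt8 ran from -0.18 to 0.15 (without KO 3). With cyclic loess the sign of Krt9 (0.0201) and Krt81 (0.22) changed. None of these 3 genes passed in any alternative, and the cause was not tested.

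With the replicate number as a block 29 keratins passed, all lower, and 11518 genes in all. Same-numbered libraries did not deviate together, with correlations of 0.148, -0.213, -0.115 and 0.0147, so the numbers were not taken to pair them. The deposited library names of KO 1 and WT 1 share a number whose meaning the labels do not give, and no other pair shares one. Depth limits the 17 untested keratins, whose counts cannot show a difference of moderate size.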
